A study of Mus with 4 samples.

Results

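The genes described here are 10 receptors and intracellular regulators of the canonical Wnt pathway, chosen by symbol: *Lrp5*, *Lrp6*, *Fzd1*, *Fzd4*, *Znrf3*, *Rnf43*, *Axin1*, *Axin2*, *Apc* and *Ctnnb1*. Of the 10 genes, 9 carried a listed peak of m6A, a methyl mark on adenosines of mRNA, in interscapular brown adipose tissue (iBAT). In the whole data set 10105 gene symbols did. They held 35 of the 18400 peaks listed for control mice and 30 of the 18693 peaks listed for knockout mice. *Rnf43* had 0 peaks in both lists, and *Znrf3* had 4 control peaks and 0 knockout peaks. Of the 9 genes with a peak in either list, 9 thus had a control peak and 8 a knockout peak. Of all gene identifiers with a peak in either list, 85.1% had a control peak and 85.0% a knockout peak.

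In canonical Wnt signalling, a secreted Wnt ligand joins a frizzled receptor to the co-receptor LRP5 or LRP6 at the cell surface. Without ligand, a destruction complex built on the scaffolds AXIN1, AXIN2 and APC holds β-catenin, the product of *Ctnnb1*, for phosphorylation and breakdown, and with ligand β-catenin accumulates and acts in the nucleus. ZNRF3 and RNF43 are membrane ubiquitin ligases that remove frizzled receptors from the surface, and canonical Wnt signalling is known to restrain adipocyte differentiation.

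MeRIP-seq, in which RNA fragments are pulled down with an antibody against m6A and sequenced beside an input, was done on iBAT of 8-week-old C57BL/6 mice on normal chow. *Wtap* encodes a subunit of the complex that writes m6A. Control mice were *Wtap* flox/flox. The knockout mice (*Wtap*-BKO, *Wtap* flox/flox UCP1-iCre) carried the same floxed alleles, with loxP sites around exon 4 of *Wtap*, and in addition an iCre in the *Ucp1* gene, so that the deletion was confined by design to cells that express *Ucp1*. The 4 sequenced samples were 1 m6A immunoprecipitate (IP) and 1 input for each genotype, and each was pooled from 8 mice.

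A peak is a stretch of a transcript where the IP held more reads than the input would give, and its fold enrichment is the ratio of IP over input within 1 genotype. The lists were called separately, so a peak is described below by its rank, the percent of its own list that it is stronger than by false discovery rate (FDR). With 1 pooled sample per genotype there is no replicate error, no test between genotypes was possible, and every difference below describes these pools only. The depth behind the peaks is unknown, and a missing peak means only that none passed the authors' FDR limit of 0.05. Whether a transcript was methylated less or was present at a lower level cannot be told apart, and in bulk tissue neither can fewer cells of a type and less RNA per cell.

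*Wtap* itself carried 4 peaks in each list, which do not measure its amount and so do not check the genotype. Of 12 brown adipocyte markers, 12 had a control and 11 a knockout peak, with 31 and 28 peaks in all. These totals cover differences in peak number both ways, as *Prdm16* had 8 control and 1 knockout peak and *Pparg* 1 and 4. Peak number is not peak strength. The *Pparg* control peak had a log10 FDR of −204 (rank 98.4%) and the strongest knockout peak −94.9 (rank 97.3%). Of the 4 *Pparg* knockout peaks, 2 overlapped no control peak. The study lists both genes among those with lower m6A peaks in knockout mice. Markers of other cell types had more peaks in the knockout list, while over all genes the lists held 18400 control and 18693 knockout peaks. Of all genes with a knockout peak, 17.5% had no control peak. Endothelial markers had 8 control and 17 knockout peaks (4 and 7 of 7 genes), macrophage markers 5 and 14 (4 and 6 of 7 genes), skeletal muscle markers 3 and 11 (3 and 7 of 8 genes), and fibroblast markers 14 and 18 (9 of 9 genes in both). The part of these cell types in the Wnt peaks was not tested.

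Peaks of the lists were called matched, or found in the other list, where their exonic blocks on 1 strand had at least 1 base in common. Of the 35 control peaks, 25 were found in the knockout list (71.4%, 95% exact binomial interval 53.7% to 85.4%) and 10 were not. Over all control peaks, 32.2% were not found. Of the 30 knockout peaks, 27 were found in the control list (90.0%, interval 73.5% to 97.9%) and 3 were not, where 32.0% of all knockout peaks were not found. The intervals treat peaks as independent, although peaks of 1 gene share its transcript, and cover counting error only. The 10 unmatched control peaks came from *Znrf3* (4), *Fzd1* (2) and *Lrp6*, *Fzd4*, *Axin2* and *Apc* (1 each). The 3 unmatched knockout peaks lay on *Fzd4*, *Axin2* and *Apc*. Counted by gene, 6 of the 9 had an unmatched control peak, against 46.1% of all genes with a control peak, and 3 of the 8 had an unmatched knockout peak, against 47.7%. These shares by gene do not allow for peaks per gene, and a gene with more peaks has more that can be unmatched. The 9 genes held 35 control peaks, whereas 9.41% of all genes with a control peak had at least 4. Of genes with 6 control peaks, 76.8% had an unmatched one. Of all genes with a knockout peak, 17.5% had no control peak, and none of the 8 Wnt genes with a knockout peak was such a gene.

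**Figure D1:**
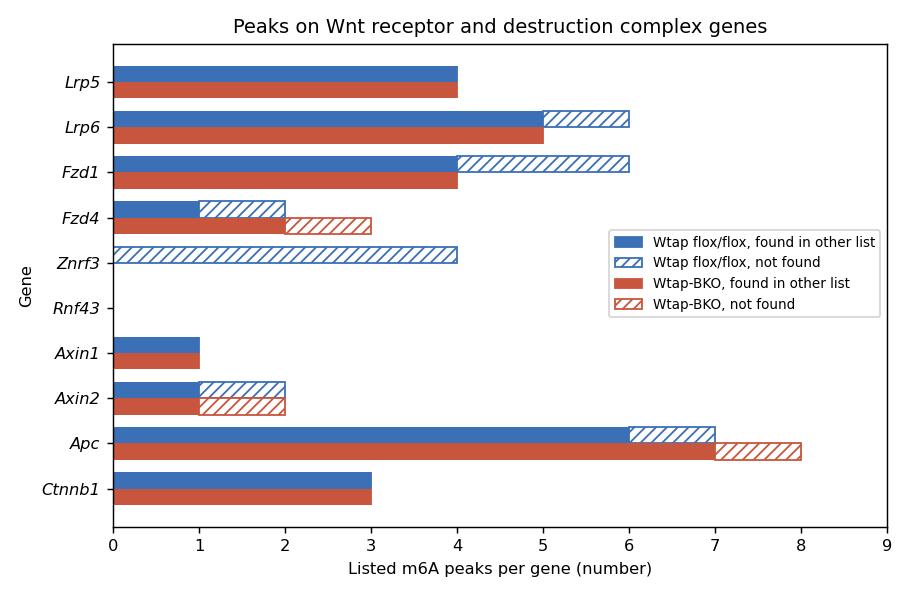
Number of listed m6A peaks on each of the 10 genes in control (blue, Wtap flox/flox) and knockout (red, Wtap-BKO) mice, with filled bars for peaks found in the other list and hatched bars for peaks not found there. Znrf3 has 4 control peaks, all hatched, and no knockout peak, and Rnf43 has none at all.

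The unmatched peaks were weak by FDR. By fold enrichment the unmatched control peaks ranged from 1.39 on *Fzd4* to 21.0 on *Fzd1*, higher than 0.32% and 92.9% of the control list. The limit of 50% used next was chosen after the values were seen. The strongest unmatched peak had a rank of 48.9%, so the full counts above the limit follow from that choice. Among member peaks that were stronger than at least 50% of their list, 19 of 19 control peaks and 19 of 19 knockout peaks were found in the other list. Over all peaks of that strength, 16.5% of control and 11.7% of knockout peaks were not found. The 10 unmatched control peaks were among the 16 weaker ones, and in the weaker part of the whole list 47.8% of control peaks were not found. They covered from 90 to 539 exonic bases with a median of 121. The 3 unmatched knockout peaks were among 11 weaker ones, where 52.2% of all knockout peaks were not found. Under an FDR of 1e-05, 2 of 23 control peaks and 0 of 20 knockout peaks were not found, against 20.4% and 15.4% of all peaks under that limit.

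The co-receptor *Lrp6* (ENSMUSG00000030201) lies on the minus strand of chromosome 6 of GRCm38, from 134446476 to 134566913 in RefSeq. It had 6 control and 5 knockout peaks, and of genes with 6 control peaks 76.8% had at least 1 that was not found. The 5 matched peaks all ranked lower in the knockout list than in the control list, and all 5 had a lower fold enrichment there. Of 98 genes with 5 matched control peaks, 8.16% had all of them ranked lower in the knockout list. The like share for fold enrichment was not counted, and 63.5% of all matched control peaks had a lower fold enrichment in the knockout list.

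The strongest *Lrp6* control peak, from 134450583 to 134453562, covered 511 bases and was centred 4362 bases before the 3ʹ end of the gene. It was enriched 7.61-fold with a log10 FDR of −68.3, and by FDR it was stronger than 92.7% of the control list. The knockout peak on it, from 134450643 to 134451003, covered 361 bases. It was enriched 2.28-fold with a log10 FDR of −6.05, which was stronger than 48.7% of the knockout list. This was the largest gap in rank among the *Lrp6* pairs. Across all matched control peaks, 4.71% had a knockout peak ranked at least 40 points lower, and 2 of the 25 matched peaks described here were among them.

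At the 5ʹ end of *Lrp6*, a peak in 2 blocks joined a stretch close to the start of the gene to one that begins 24868 bases from it, and it was in both lists. The control peak had 53 and 308 bases in its blocks, with a log10 FDR of −33.1 and 9.61 as its fold enrichment. The knockout peak had 173 and 278 bases, with −13.5 and 4.62. They were stronger than 83.1% of the control and 71.5% of the knockout list. The peak thus reached further toward the gene's start in the knockout list and was weaker there on both measures.

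The other 3 matched *Lrp6* peaks lay between these ends. Their control ranks ran from 34.8% to 51.4% and those of the knockout peaks on them from 30.6% to 32.0%. The unmatched control peak, from 134479697 to 134479817, was enriched 2.33-fold and was stronger than 22.7% of its list.

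The related co-receptor *Lrp5* (ENSMUSG00000024913, minus strand of chromosome 19, RefSeq 3584825 to 3686585) had 4 peaks in each list, and all 4 were matched. Ranks moved both ways, with 2 higher and 2 lower in the knockout list. The strongest peak, from 3630099 to 3630429 in control mice, had a log10 FDR of −27.3 and was enriched 7.42-fold. The knockout peak there, from 3630099 to 3630399, had −30.7 and 6.45, stronger than 87.5% of its list against 79.5% for the control peak.

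The peak nearest the 3ʹ end of *Lrp5* was split over 2 blocks in both lists and had a log10 FDR of −9.93 in control and −12.6 in knockout mice. Another, starting at 3615745 in both lists, had 151 control bases in 2 blocks and a rank of 33.9%. In the knockout list it had 91 bases in 1 block and a rank of 1.03%, close to the authors' limit.

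The remaining *Lrp5* pair shared the smallest part of the control peak, 44.4% of its bases. The control peak from 3659311 to 3659580 covered 270 bases and was enriched 5.11-fold. The knockout peak shared 120 bases with it and also held a separate block of 210 bases, from 3686355 to 3686564, whose upstream edge is 21 bases from the 5ʹ end of the gene. Its fold enrichment was 15.9, and the 2 peaks had similar ranks of 59.2% and 57.1%. No control peak covered the stretch at the start of *Lrp5*, so the high knockout ratio belongs to a peak that is mostly outside the control peak.

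**Figure D2:**
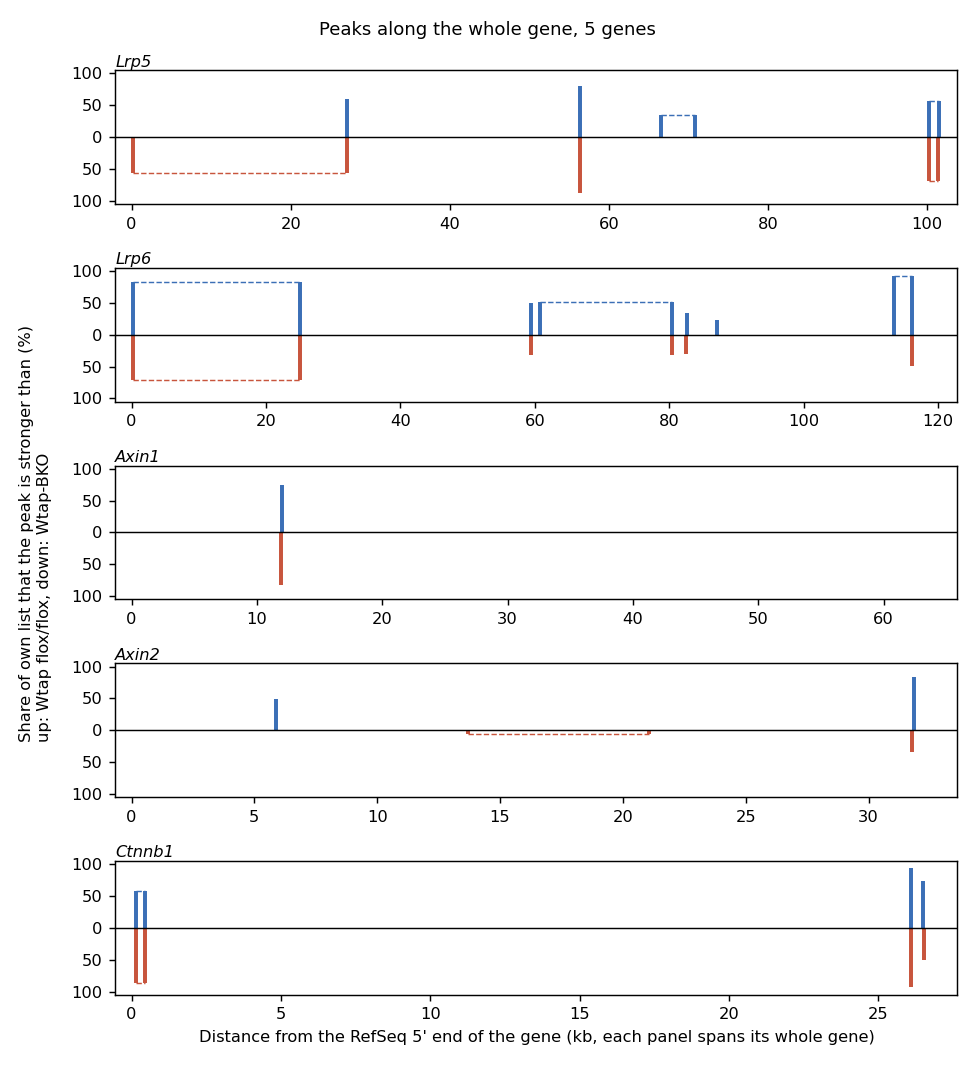
Peaks of Lrp5, Lrp6, Axin1, Axin2 and Ctnnb1 by distance from the RefSeq 5ʹ end of the gene in kb, with control peaks above and knockout peaks below the line. The height is the percent of the peak's own list that it is stronger than by FDR, and a dashed line joins the blocks of 1 peak. The Lrp5 knockout peak with a rank of 1.03% is too low to be seen. The Lrp6 bars near the 3ʹ end reach 92.7% in control and 48.7% in knockout mice, and the Axin2 bars there reach 84.1% and 34.9%.

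The frizzled receptor gene *Fzd1* (ENSMUSG00000044674) spans only 4378 bases on the minus strand of chromosome 5, from 4753839 to 4758216, and 6 control and 4 knockout peaks were spread along it. All 4 knockout peaks were matched. In contrast to *Lrp6*, the 4 matched peaks all ranked higher in the knockout list, as was so for 25.4% of the 244 genes with 4 matched control peaks. Their fold enrichments went both ways, 2 higher and 2 lower.

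The strongest *Fzd1* peak ran from 4755308 to 4755847 in control and from 4755338 to 4755847 in knockout mice, sharing 510 bases. Its log10 FDR was −35.1 in control and −47.2 in knockout mice, and its fold enrichment 8.81 and 7.23. The next strongest, from 4754169 to 4754438 in control mice, lay 464 bases before the 3ʹ end, with −15.4 and −12. These 2 peaks kept nearly the same edges in both lists.

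The 2 unmatched *Fzd1* control peaks were short, 91 bases from 4757945 to 4758035 and 121 bases from 4756716 to 4756836. The first, 226 bases from the 5ʹ end, was enriched 21.0-fold, higher than 92.9% of the control list, with a log10 FDR of only −4.68. The second had 3.93 and −3.36.

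*Fzd4* (ENSMUSG00000049791, plus strand of chromosome 7, RefSeq 89404366 to 89410110) encodes a frizzled receptor that also binds norrin in blood vessels. It held the strongest peak of the 9 genes. The control peak from 89407045 to 89408605 covered 1561 bases without a break. Its enrichment was 11.1-fold and its log10 FDR −281, which was stronger than 99.0% of the control list.

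In the knockout list the same stretch of *Fzd4* held 2 peaks with 59 bases between them. The larger, from 89407465 to 89408575, was enriched 6.67-fold and had a log10 FDR of −163, which was stronger than 98.9% of the knockout list. The smaller, from 89407045 to 89407405, had −28.4 and 2.50. Together they covered 94.3% of the control peak, so that nearly all of it was listed in both genotypes. Among all control peaks, 6.08% lay over 2 or more knockout peaks, and 2 of the 35 described here did. In the other direction, 5.08% of all knockout peaks lay over 2 or more control peaks, and 0 of the 30 did.

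Each list also had a weak *Fzd4* peak beyond the RefSeq end of the gene, assigned to *Fzd4* by the Ensembl identifier in the files. The control peak started 2484 bases past that end, with a fold enrichment of 1.39. The knockout peak started 84 bases past it, with 1.81. Neither was found in the other list. *Fzd4* is active in endothelial cells, whose markers had 8 control and 17 knockout peaks, and whether this bears on the *Fzd4* peaks was not tested.

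The ubiquitin ligase gene *Znrf3* (ENSMUSG00000041961, minus strand of chromosome 11, RefSeq 5276329 to 5444847) was the only gene of the 10 with peaks in 1 list only. Its 4 control peaks were centred from 3268 to 5974 bases before the 3ʹ end of a gene that spans 168519 bases. In order along the transcript they ran from 5282183 to 5282422, from 5281735 to 5281884, from 5280928 to 5281137 and from 5279553 to 5279642.

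Their fold enrichments were 11.2, 18.7, 8.62 and 11.2, higher than 72.0%, 90.7%, 61.0% and 72.0% of the control list. Their log10 FDR values were −5.94, −4.03, −3.83 and −1.97, stronger than only 42.2%, 28.7%, 26.9% and 2.96% of it. *Znrf3* thus had high ratios of IP over input with weak statistical support, and 1 of the 4 peaks passed an FDR of 1e-05.

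Of 9732 genes with a control peak, 17.7% had no knockout peak. Of the 498 with 4 control peaks of any strength, 14 had none (2.81%). All 4 *Znrf3* peaks were in the weaker part of the control list, where 47.8% of all control peaks were not found. *Znrf3* is 1 of the 14. Its paralog *Rnf43* (RefSeq chromosome 11, 87663087 to 87735539), which encodes the other ligase of this type, had no peak in either list, so neither ligase carried a peak in knockout mice.

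**Figure D3:**
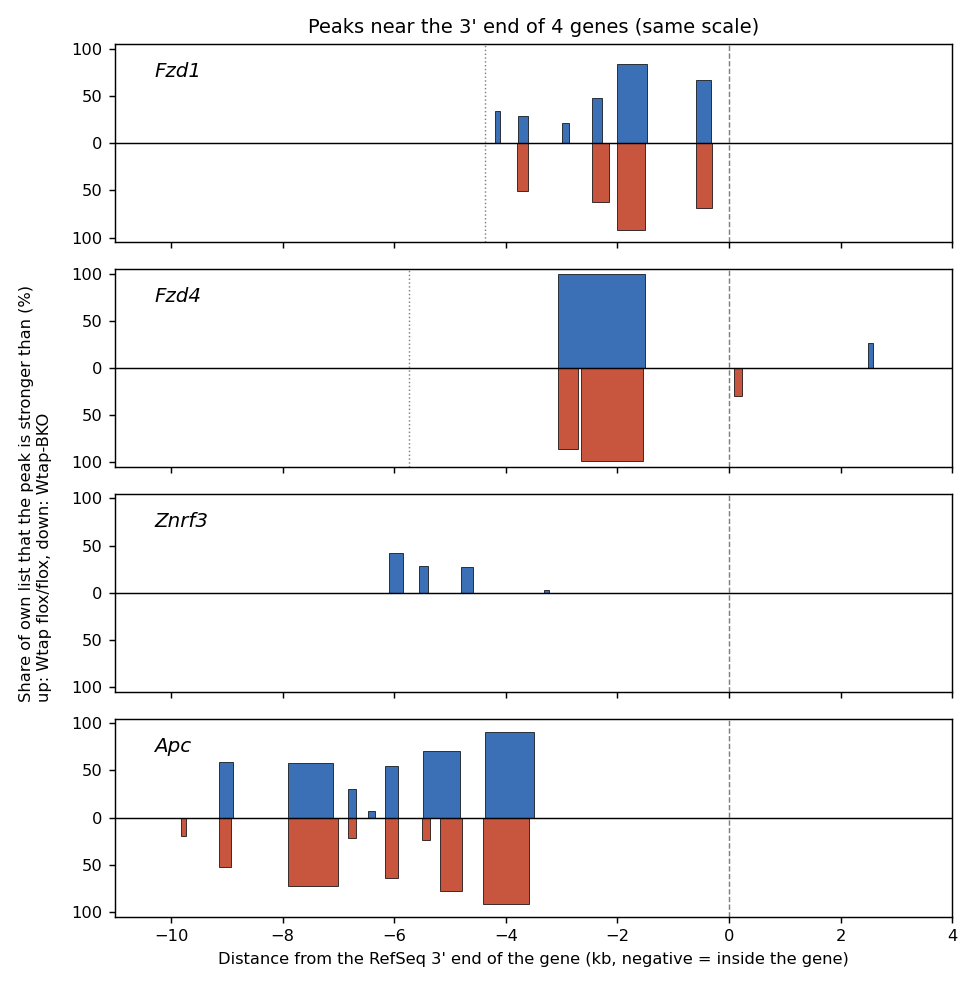
Peaks of Fzd1, Fzd4, Znrf3 and Apc by distance from the RefSeq 3ʹ end of the gene in kb (dashed line at 0, negative values inside the gene, dotted line at the 5ʹ end of Fzd1 and Fzd4), all on the same scale. Control peaks point up and knockout peaks down, and the height is the percent of the own list that a peak is stronger than by FDR. Control and knockout peaks face each other on Fzd1, Fzd4 and Apc, whereas the 4 Znrf3 peaks have nothing below them.

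Of the scaffolds of the destruction complex, *Axin1* (ENSMUSG00000024182, plus strand of chromosome 17, RefSeq 26131217 to 26195811) had 1 peak in each list, centred 12034 bases from the 5ʹ end in control mice. The control peak ran from 26142982 to 26143520 and the knockout peak from 26142832 to 26143490, sharing 509 bases. Their log10 FDR values were close, −21.4 and −21.7, while the fold enrichment was 15.7 in control and 6.24 in knockout mice. The knockout peak was the longer, 659 against 539 bases.

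*Axin2* (ENSMUSG00000000142, plus strand of chromosome 11, RefSeq 108917828 to 108950783) is itself a target gene of β-catenin and is widely used as a readout of the pathway. It had 2 peaks in each list, of which 1 was matched. The matched control peak, from 108949467 to 108949885 near the 3ʹ end, covered 419 bases. Enriched 16.6-fold with a log10 FDR of −35.4, it was stronger by FDR than 84.1% of the control list. The knockout peak on it ended at 108949706, covered 240 bases and had −4.21 and 5.76, stronger than 34.9% of the knockout list. This was the largest gap in rank among the 25 matched peaks.

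The other *Axin2* control peak, from 108923423 to 108923961, covered 539 bases and was centred 5864 bases from the 5ʹ end. Its log10 FDR was −7.46 and it was enriched 16.9-fold. It was the longest and strongest of the 10 unmatched control peaks, at a rank of 48.9%. Among control peaks ranked between 40% and 50%, 35.1% were not found. The other knockout peak, in 2 blocks from 108931447 to 108938890, covered 150 bases with a log10 FDR of −2.12. No *Axin2* peak in knockout mice passed an FDR of 1e-05, whereas both control peaks did. Over all peaks, 63.1% of the control and 58.4% of the knockout list passed it. The peaks do not measure the amount of *Axin2* mRNA or the activity of the pathway.

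*Apc* (ENSMUSG00000005871, plus strand of chromosome 18, RefSeq 34220297 to 34322190) had the most peaks, 7 in control and 8 in knockout mice. Genes with at least 7 control peaks made up 0.986% of the genes in the control list. All *Apc* peaks were centred from 3939 to 9779 bases before the 3ʹ end of a gene spanning 101894 bases. Of the 3093 control bases, 86.5% were also under a knockout peak.

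The strongest *Apc* peak, from 34317817 to 34318685 in control and from 34317787 to 34318595 in knockout mice, had fold enrichments of 14.2 and 7.78. Its log10 FDR was −54.0 and −42.8, a rank of 90.2% and 91.5%. The control peak from 34316709 to 34317368 lay over 2 knockout peaks with 178 bases between them, the larger with a log10 FDR of −17.7 against −17.9 for the control peak. The peak starting at 34314283 in both lists went the other way in fold enrichment, 5.41 in control and 8.72 in knockout mice. Of the 6 matched control peaks, 4 ranked higher and 2 lower in knockout mice, and 5 had a lower fold enrichment there.

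Each list had 1 unmatched *Apc* peak. Of all genes with 7 control peaks, 89.7% had an unmatched one, and of those with 8 knockout peaks 84.8% did. The control peak from 34315720 to 34315840 had a log10 FDR of −2.29, and the knockout peak from 34312366 to 34312456 had −2.96. They were stronger than 6.74% and 19.6% of their lists.

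*Ctnnb1* (ENSMUSG00000006932, plus strand of chromosome 9, RefSeq 120933400 to 120960507), which encodes the β-catenin that the complex degrades, had 3 peaks in each list. All 3 were matched, and 2 of them had identical edges in both lists. Of the 777 control bases, 96.1% were under a knockout peak. The ratios of *Ctnnb1* were low throughout, with fold enrichments from 1.76 to 2.70 in control and from 1.36 to 3.19 in knockout mice.

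The strongest *Ctnnb1* peak, from 120959314 to 120959701 centred 1000 bases before the 3ʹ end, had fold enrichments of 2.70 and 2.05 and a log10 FDR of −77.6 in control and −45.3 in knockout mice. Downstream of it, the control peak from 120959821 to 120960000 had −20.3, and the knockout peak on it had −6.49. The peak near the 5ʹ end was the exception. It ran in 2 blocks from 120933480 to 120933867, starting 80 bases from the start of the gene, with a log10 FDR of −10.5 in control and −30.3 in knockout mice and fold enrichments of 2.36 and 3.19. Its rank was 57.8% in the control and 87.3% in the knockout list. By rank the strongest 3ʹ peak was nearly the same in both lists, at 93.8% in control and 92.1% in knockout mice. The peak downstream of it ranked lower in the knockout list, at 50.9% against 73.5%.

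Taking the 25 matched control peaks with the strongest knockout peak on each, 20 had a lower fold enrichment in knockout mice, with a median ratio of 0.759. Over all 12483 matched control peaks, 63.5% were lower and the median ratio was 0.786, so the median of the Wnt genes lay close to that of all peaks. By rank, 13 of the 25 were lower in the knockout list, against 43.6% of all matched control peaks. The genes differed in this respect, with 5 of 5 peaks lower on *Lrp6*, 0 of 4 on *Fzd1* and 2 of 6 on *Apc*.

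**Figure D4:**
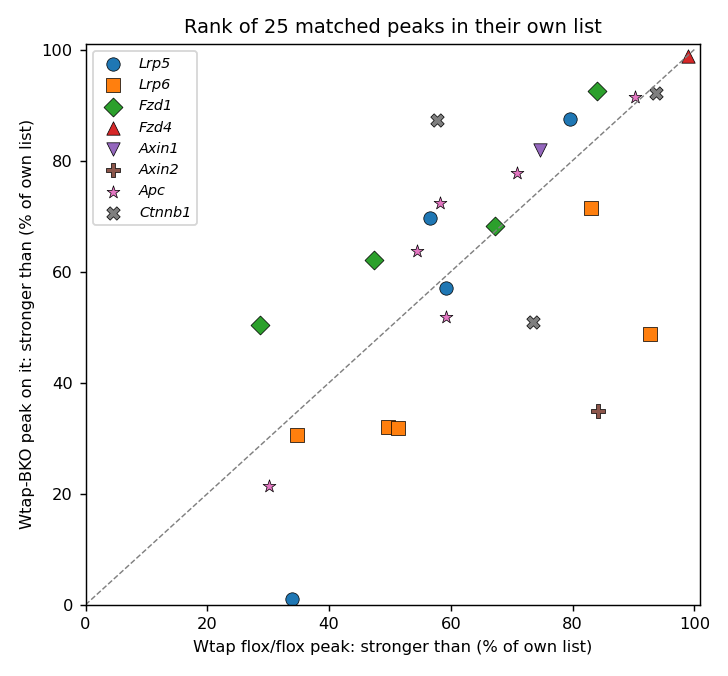
Rank of the 25 matched peaks, as the percent of its own list that a peak is stronger than by FDR, for the control peak (horizontal axis) and the strongest knockout peak on it (vertical axis), with equal ranks on the dashed line. The 5 Lrp6 points lie below the line and the 4 Fzd1 points above it, and the Axin2 point lies farthest below, at 84.1% in control and 34.9% in knockout mice.

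Peak edges were partly shared. Both edges were identical in 4 of the 27 pairs, and the pairs were chosen by overlap. The same count over all matched peaks was not made. The 25 matched control peaks formed 27 pairs with knockout peaks, and of their 54 edges, 21 were at the same base in both lists and 35 were within 1 step of 30 bases of each other, give or take 1 base. Of the 54, 50 differed by a multiple of 30 bases within the same tolerance, so peak edges in both lists lay mostly on a grid of 30 bases.

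With a window of 1000 bases around the RefSeq 3ʹ end, 4 of 35 control peaks had their centre inside it (11.4%, interval 3.20% to 26.7%), and 5 of 30 knockout peaks did (16.7%, interval 5.64% to 34.7%). Over all peaks on genes in the table the shares were 23.2% in control and 20.8% in knockout mice. At this window the intervals of the Wnt genes include the shares of all peaks. With a window of 2000 bases, 6 of 35 control peaks lay inside it (17.1%, interval 6.56% to 33.6%) against 39.4% of all control peaks, which is above that interval. In knockout mice 7 of 30 did (23.3%, interval 9.93% to 42.3%), against 36.2% of all knockout peaks, which is inside that interval. The intervals again treat peaks as independent, although peaks of 1 gene can lie close together. None of the 7 *Apc* and 4 *Znrf3* control peaks was inside the window of 2000 bases, so the intervals cannot be read as a test.

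A list of 93 other Wnt pathway genes gave the setting for these values. Of them, 36 had peaks in both lists, 7 in control only, 10 in knockout only and 40 in neither. Thus 7 of the 43 with a control peak had no knockout peak, where 17.7% of all such genes had none. Of the 46 with a knockout peak, 10 had no control peak, where 17.5% of all such genes had none. Each list held 107 peaks on them, of which 38 control peaks (35.5%) and 35 knockout peaks (32.7%) were not found in the other list, close to the 32.2% and 32.0% of all peaks. Of the 43 genes with a control peak, 24 had at least 1 unmatched control peak (55.8%, against 46.1% of all genes with a control peak). Of the 46 with a knockout peak, 28 had an unmatched knockout peak (60.9%, against 47.7%). The shares by gene do not allow for peaks per gene. Here 107 control peaks lay on 43 genes, and in the whole control list 18400 lay on 9732.

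Among the 21 ligand genes and genes of ligand export, 4 had a control and 3 a knockout peak. *Wnt11*, a ligand, had 2 control peaks, the stronger with a log10 FDR of −31.5, and *Wnt9a* had 1 with −3.40, and neither had a knockout peak. *Wnt5b* had 1 knockout peak with −2.32 and none in control mice. *Wls*, which carries Wnt ligands to the cell surface, had 1 peak in each list at different places, with a log10 FDR of −11.3 in control and −5.74 in knockout mice.

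Of 16 other receptor genes, 6 had peaks in both lists. Control peaks alone were listed for *Fzd2* (−2.98) and *Ror2* (−2.37) and knockout peaks alone for *Fzd3* (−1.74) and *Ror1* (−3.05). *Lgr6*, a receptor for R-spondins, had 3 control peaks, the strongest with a log10 FDR of −37.8, and 2 knockout peaks, and none of the 5 was found in the other list. Among 18 secreted modulators and their receptors, 3 had peaks in both lists, and *Sfrp2*, a secreted Wnt antagonist, had a knockout peak only (−3.04).

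Cytoplasmic regulators were the group most often listed, with 15 of 21 genes in both lists. *Tnks* (−4.03) and *Tnks2* (−2.57), whose products mark axin for breakdown, had control peaks only. *Dvl2* (−4.48), *Nkd1* (−1.92) and *Nkd2* (−1.92) had knockout peaks only. Of 17 nuclear factors and target genes, 10 were in both lists. *Tcf7l2* (−3.10) was in the control list only, and *Tcf7* (−5.71), *Tle4* (−2.03) and *Ccnd1* were in the knockout list only. The *Ccnd1* peak (chromosome 7, 144939655 to 144939865) had a log10 FDR of −19.5 and was enriched 18.6-fold. *Ccnd1* encodes cyclin D1, and its peak was stronger than 79.7% of the knockout list, whereas the other genes seen in knockout mice only had weak peaks at or below a rank of 46.5%.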

How the data were processed

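Per the labels, poly(A)+ RNA of iBAT was immunoprecipitated with an m6A antibody and sequenced as 150 bp paired reads. The submitters' processing notes name fastp 0.19.11, BWA 0.7.12, HOMER 4.9.1 and GRCm38.p6, and the methods name MACS2 for peak calling, although the spliced blocks in the lists are laid out as the R package exomePeak writes them. The deposited lists hold, per peak, the authors' p-value, 2 scores (log10 p-value and log10 FDR) and a fold enrichment, a ratio of IP over input deposited with no account of library scaling. Their FDR limit was 0.05.

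Positions were converted to start at base 1. Peaks were selected by symbol, matched on exonic blocks and strand, and ranked within their own list in Python 3.11.15 (numpy 2.4.6, pandas 2.3.3, scipy 1.17.1, matplotlib 3.10.9). Matching was checked on a simulated list made from the 18400 control peaks by keeping, shortening or removing each. Every kept or shortened copy was found, while removed peaks were counted as right without a check. A direct comparison of 200 control peaks with all knockout peaks gave 0 differences from the matching. Gene ends came from a RefSeq table of GRCm38.p6, which holds no exons, so exons and UTRs were not assigned. No genome sequence was used here, so no peak sequence or motif is shown. No test was made, because each genotype had 1 pooled sample. The alternatives were other overlap rules, stricter FDR limits, a fold minimum, ranking by fold and other windows. The members and gene lists were chosen with earlier results of these data known. From the wider Wnt list, the genes named are those with peaks in 1 list only and, per list, the first 3 by FDR among genes whose strongest peak was not found in the other list.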

Additional observations from a re-analysis of the deposited data

How the results depend on the processing

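The 25 control and 27 knockout peaks found in the other list were 24 and 26 with at least 50% of the bases shared, 31 and 30 with any peak on the same gene, and 25 and 27 with whole spans or by Ensembl identifier. With an FDR under 1e-05 for the peak, 21 of 23 control peaks (91.3%) and 20 of 20 knockout peaks were found, and with that limit in both lists 18 and 19 were. A limit of 1e-05 lowered the 35 control peaks to 23, and a limit of 1e-10 left 16 control and 14 of the 30 knockout peaks. With the limit of 1e-05 on the control peak alone, the 2 unmatched control peaks were 1 of *Znrf3* and 1 of *Axin2*. Ranked by fold enrichment instead of FDR, the median member peak was higher than 40.04% of the control and 43.2% of the knockout list, against 54.4% and 59.6% by FDR. The 24 other Wnt genes with an unmatched control peak were 9 when only control peaks under 1e-05 were counted. The share near the 3ʹ end ran from 5.71% to 17.1% in control and from 10% to 23.3% in knockout mice with windows of 500 to 2000 bases, where the shares over all peaks ran from 12.5% to 39.4% and from 10.7% to 36.2%. The division of the lists at a rank of 50% was chosen after the values were seen. The number of reads behind the unmatched peaks is unknown, and 1 of the 4 *Znrf3* peaks (log10 FDR −1.97) and the unmatched *Apc* control peak (−2.29) ranked near the authors' limit. No paired analysis was possible because each genotype had 1 pooled sample, and for the same reason no sample was omitted in turn.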
